A study of Mus musculus with 4 samples.

Results

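Langerhans cells are the antigen-presenting cells that live among the keratinocytes of the epidermis. They were taken here as the barcodes in which the rounded counts of Cd207, H2-Aa, H2-Ab1, H2-Eb1, Cd74 and Csf1r summed to at least 10 and in which Cd3e and Cd3g had no count. This gave 228 cells of 34150 kept, where a barcode was kept with at least 1200 counts of unique molecular identifiers (UMIs) and at most 20% mitochondrial counts. Single-cell RNA of dorsal epidermis was measured with BD Rhapsody in 4 female C57BL/6N mice at postnatal day 19, 2 control mice (CerS4fl/flK14Cre-) and 2 CerS4epi-/- mice (CerS4fl/flK14Cre+). Every mouse thus carried floxed alleles of Cers4, a ceramide synthase, and they differed in a Cre recombinase driven by the keratin 14 promoter of keratinocytes, which removes Cers4 from the epithelium.

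Langerhans cells descend from blood-forming precursors that seed the skin before birth and then renew in place. They depend on the receptor Csf1r and on its epidermal ligand IL-34, and on TGF-β. They load peptides on MHC class II molecules (H2-A and H2-E, with the invariant chain Cd74 and the peptide editor H2-DM), take up pathogens through langerin (Cd207), and carry the adhesion molecule Epcam. The comparison addresses whether these cells, which lie within the epithelium that was made to lose Cers4, differ in number or in expression between the genotypes.

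The MHC class II genes that chose the cells share a locus. H2-Ab1 (chr17:34476663-34488393, + strand), H2-Aa (chr17:34493404-34506798, - strand) and H2-Eb1 (chr17:34504236-34535648, + strand) lie side by side on chromosome 17 of GRCm39, and Cd207 (chr6:83648190-83654839, - strand) lies on chromosome 6. Genes of the MHC class II pathway are known to be switched on together through an X box and a Y box just before their start sites, and Ciita, the coactivator that acts through these boxes, was itself among the leading genes of the cells. The 120 bases before the RefSeq start sites of H2-Aa, H2-Eb1 and H2-DMb2 are shown because the first pair belong to the rule and the third was a leading gene that the rule did not use. Capitals mark TGATTGG, the core of the Y box, and GCAAC, part of the X box, on either strand. The build is GRCm38.p6, and the stretches are chr17:34287824-34287943 (- strand), chr17:34305747-34305866 (+ strand) and chr17:34145129-34145248 (+ strand).
H2-Aa: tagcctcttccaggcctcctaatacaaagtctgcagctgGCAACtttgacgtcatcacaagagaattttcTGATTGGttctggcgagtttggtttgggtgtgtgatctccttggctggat
H2-Eb1: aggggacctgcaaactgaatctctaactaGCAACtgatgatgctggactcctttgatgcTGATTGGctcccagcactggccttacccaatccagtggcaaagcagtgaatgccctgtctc
H2-DMb2: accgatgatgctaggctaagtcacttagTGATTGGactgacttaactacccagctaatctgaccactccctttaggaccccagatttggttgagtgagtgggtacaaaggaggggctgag
In H2-Aa the 2 motifs were 26 bases apart, and in H2-Eb1 they were 25 bases apart. Of 32851 RefSeq promoter windows, from 250 bases before to 50 after each start, 7.82% held TGATTGG and 35.2% held GCAAC on either strand, and 0.183% held GCAAC followed by TGATTGG within 40 bases on the strand of the gene. Of 6 class II promoters searched, H2-Ob and H2-Oa also held both motifs, 23 and 26 bases apart, and H2-DMb1 and H2-DMb2 held no GCAAC in these 120 bases. A match is a description of the letters and not evidence of binding.

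The libraries held 72 and 46 Langerhans cells in control 1 and 2, and 52 and 58 in CerS4epi-/- 1 and 2. Control 1 and 2 had a median depth per cell of 2528 and 2651 counts, CerS4epi-/- 1 and 2 of 3314 and 2827, and their summed counts were 219027, 164580, 206905 and 204605 in the same order. No barcode was kept in both libraries of a genotype, while 64 to 102 kept barcodes recurred between each pair of libraries of different genotype. The authors split pooled libraries by sample tag, and genotype and shared handling cannot be told apart. No barcode was a Langerhans cell in more than 1 library.

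The 6-gene sum separated most of these cells clearly. Of the 228 cells, 209 had a sum of at least 60 (median 183), 3 had 25 to 59 and 16 had 10 to 24. The cells just inside the limit looked different from the main body in genes outside the rule. None of the 16 had a count of Ptprc (CD45, the common marker of blood-derived cells), and 7 had Mfge8. A median 3.37% of their counts lay in 15 keratinocyte marker genes. A Cd207 count was found in 1 of the 16, which describes the choice of the cells, since Cd207 is in the rule. In the main body 186 of 209 cells had Cd207, 124 had Ptprc and 199 had Mfge8, with 0.155% of counts in keratinocyte genes. The 51 barcodes just outside, with sums of 5 to 9, had 5.18% keratinocyte counts, and 6 of them had Cd207. The cells of low sum were unevenly spread, with 0 in control 1, 4 in control 2, 8 in CerS4epi-/- 1 and 4 in CerS4epi-/- 2, so their RNA enters 3 of the 4 summed profiles.

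Some cells carried counts of both cell types. At least 2% of counts in the keratinocyte list, a limit set after the values were seen, was found in 8 of 72, 18 of 46, 11 of 52 and 10 of 58 Langerhans cells of control 1, control 2, CerS4epi-/- 1 and CerS4epi-/- 2. These 47 cells had a median of 4982 counts against 2579 in the other 181. They took in 14 of the 16 cells of low sum, and 32 of them had a sum of at least 60. Krt10, a keratin of the spinous layer, reached 8334 CPM in them (CPM, counts of a gene scaled to 1000000 counts of the summed cells) against 254 in the others, and H2-Aa 5506 against 18555 CPM; these values describe the choice of the cells, since Krt10 is in the keratinocyte list and H2-Aa in the rule. No doublet caller was run and none of these cells was removed, and whether they hold 1 cell or 2 was not tested.

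**Figure D1:**
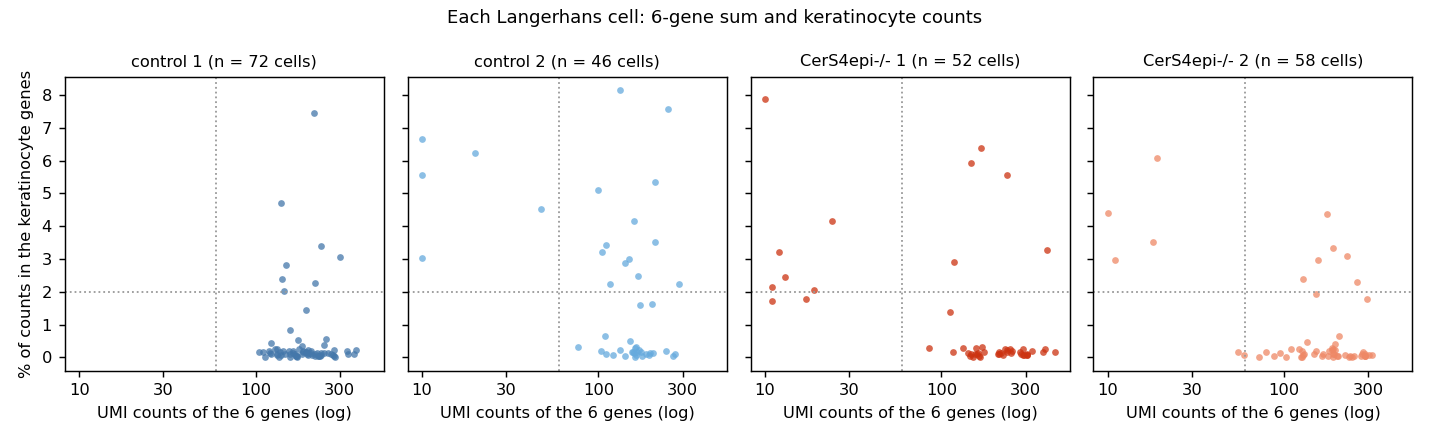
Each point is 1 Langerhans cell in the mouse named above the panel, with the summed UMI counts of the 6 genes on a log axis and the percent of its counts in 15 keratinocyte genes; dotted lines mark a sum of 60 and a share of 2%. Most cells lie at the lower right, while cells with 10 to 24 counts occur in 3 mice (4, 8 and 4 cells) and not in control 1.

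Markers that the rule did not use were checked against the label Langerhans cell. Mfge8, a secreted bridge to phosphatidylserine that the rule did not use, reached 3622 and 2821 CPM in control Langerhans cells, 3748 and 2953 CPM in CerS4epi-/- ones, and 1.59 to 9.08 CPM in all other kept cells. Epcam, which keratinocytes also express, was at 783 to 1215 CPM in Langerhans cells and at 199 to 439 CPM in the others. A Cd207 count was found in 0.0666% to 0.238% of the other kept cells, a share that the rule itself holds low, since Cd207 is one of its genes.
The 16-gene Langerhans list summed to 76113, 50319, 57818 and 58925 CPM in control 1, control 2, CerS4epi-/- 1 and CerS4epi-/- 2, a sum that the rule genes dominate. The 10 genes of the list that the rule did not use summed to 11949, 8334, 9836 and 9754 CPM in the same order, and to 305 to 633 CPM in the other kept cells. None of the 16 genes was at 0.

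The leading genes that the rule did not use included several with known roles in myeloid cells. By ratio of mean CPM to all other kept cells, among genes of at least 100 CPM in every mouse, they were Nlrp3 (207.6 CPM), the sensor of the inflammasome, then Mmp9, a gelatinase, H2-M5, Cd86, a costimulator of T cells, Scn3a, Csf2rb, the shared beta chain of the GM-CSF receptor, Adgre1 (F4/80), Alox5, Tnfaip2 and P2rx2. The next 10 were Ptpro, Ciita, Clec4a1, Adgre4, Ltc4s, Nfam1, H2-DMb2, Dpep2, Gpr183 and Ffar2. Alox5 (974 CPM) and Ltc4s (552 CPM) both belong to leukotriene synthesis, where Alox5 makes leukotriene A4 and Ltc4s conjugates it with glutathione. These ratios describe cells chosen by their counts and were not tested.

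Markers of other cell types were low, apart from those of keratinocytes and some that Langerhans cells share with macrophages. The keratinocyte list, of which all 15 genes were present and Krtdap had the most counts, summed to 12123 and 30564 CPM in the control mice and to 19808 and 14687 CPM in the CerS4epi-/- mice, so control 2 was highest. Of 10 T cell markers Cd3e and Cd3g were at 0 by the rule, and Cd3d, Trac, Nkg7 and Il2rb were at 0 as well; the list summed to 44.0 to 82.2 CPM. Of 9 macrophage markers Mrc1, Cd163 and Fcgr1 were at 0, and Adgre1 had the most counts of a list that summed to 466, 334, 580 and 484 CPM in control 1, control 2, CerS4epi-/- 1 and CerS4epi-/- 2.
Xcr1 and Clec9a, markers of cross-presenting dendritic cells, were at 0, and the 8-gene list of conventional dendritic cells summed to 210 to 301 CPM with Sirpa as its largest gene. The 7-gene list of mature migratory dendritic cells summed to 34.2 to 73.1 CPM, with Ccr7, Ccl17 and Il12b at 0 and Relb (43.2 CPM) as its largest gene. The list of B cells, mainly Ighm, summed to 79.0 to 119 CPM. The lists of endothelial cells (0 to 14.7 CPM), neutrophils (0 to 13.7 CPM), mast cells (0 to 6.08 CPM), fibroblasts (0 to 4.89 CPM) and melanocytes (0 to 4.84 CPM) were lower than that, and Cd79b, Kdr, Cdh5, Csf3r, Cpa3, Col1a1 and Dct were at 0.

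**Figure D2:**
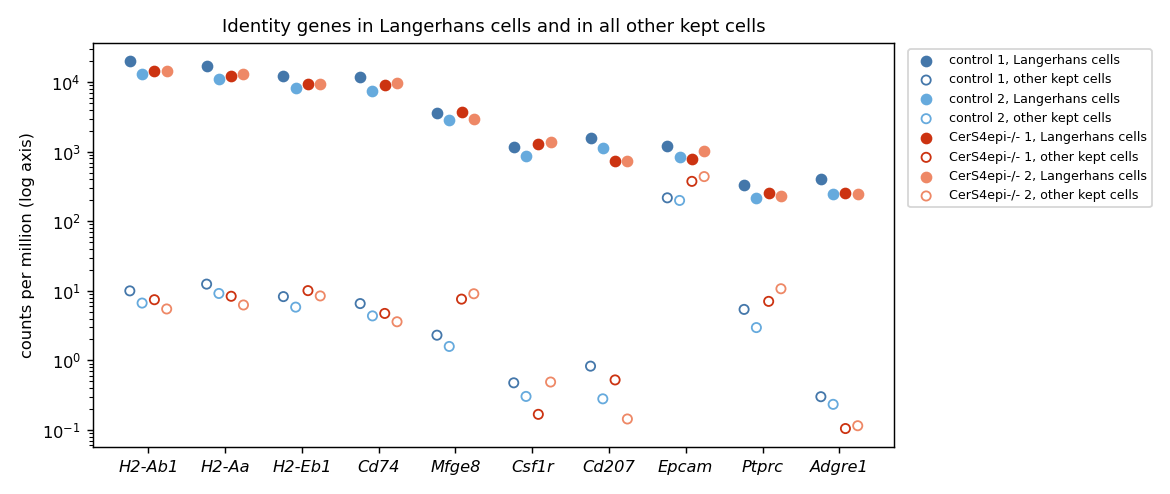
CPM on a log axis for the 6 rule genes and Mfge8, Epcam, Ptprc and Adgre1, in Langerhans cells (filled) and in all other kept cells (open), 1 point per mouse. Mfge8 lies at 2821 to 3748 CPM in Langerhans cells of both genotypes and rises in the other cells of the CerS4epi-/- mice; for Cd207 both CerS4epi-/- mice lie below both control mice.

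Langerhans cells made up a similar share of the kept cells in both genotypes, within a wide spread. The share was 0.849% in control 1 (exact binomial 95% interval 0.665 to 1.07), 0.506% in control 2 (0.371 to 0.675), 0.577% in CerS4epi-/- 1 (0.431 to 0.756) and 0.766% in CerS4epi-/- 2 (0.583 to 0.990), intervals that cover counting error only. The group means were 0.678% ± 0.242 and 0.672% ± 0.134 (SD, n = 2 mice each), with a log2 ratio of -0.013 and a two-sided exact permutation p of 1. The 2 control mice spanned both CerS4epi-/- mice, and the smallest p that 2 mice against 2 can give is 0.333.
Set against T cells, the other immune cells of the epidermis, taken as barcodes with at least 2 counts of Cd3e and Cd3g and a 6-gene sum under 10, the numbers differed more. There were 69.9 and 65.7 Langerhans cells per 100 T cells in the control mice and 38.0 and 40.6 in the CerS4epi-/- mice (log2 ratio -0.79), which did not overlap, with the smallest exact permutation p of 0.333. The T cell share was 1.21% and 0.770% in control mice and 1.52% and 1.89% in CerS4epi-/- mice. The log2 ratio of the T cell share was 0.78, against -0.013 for the share of Langerhans cells. The lower number per 100 T cells thus went with more T cells among the kept cells. Shares depend on every other cell type recovered, and a change in cell number and a change in recovery from the tissue cannot be told apart.

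Cers4 was not detected in Langerhans cells of any mouse. Its count of 0 allows up to 13.7 and 18.2 CPM in the control mice and 14.5 and 14.7 CPM in the CerS4epi-/- mice, at 3 counts per library. In all other kept cells Cers4 stood at 17.5 and 3.38 CPM in the control mice and at 4.23 and 7.76 CPM in the CerS4epi-/- mice, so the groups overlapped (log2 fold change -0.81 ± 0.67, SE, adjusted p = 0.451). T cells are among these other cells, and a Cers4 count was found in 18.4% and 11.4% of them in control mice and 17.5% and 23.8% in CerS4epi-/- mice. Of all other kept cells, 0.737% and 0.520% had a Cers4 count in control mice and 0.870% and 1.35% in CerS4epi-/- mice. The part of T cells in the Cers4 levels was not tested. Where along the gene the counted reads lie was not analysed here, so these counts do not check the deletion.
Of the other ceramide synthases, Cers2 had 26, 11, 15 and 17 counts, Cers5 18, 10, 19 and 24, and Cers6 28, 9, 25 and 26 counts in control 1, control 2, CerS4epi-/- 1 and CerS4epi-/- 2. Cers1 was at 0 throughout. Cers3, the synthase of the very long ceramides of the barrier, had 6, 15, 7 and 16 counts, in 2, 5, 2 and 2 cells.

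Cd207 stood out among the genes of the rule. Its level was 1603 and 1149 CPM in control 1 and 2, and 730 and 748 CPM in CerS4epi-/- 1 and 2. Both CerS4epi-/- mice lay below both control mice, with a fitted log2 fold change of -0.88 ± 0.27 (SE), given as a description because Cd207 helped to choose the cells. It made up 1.52% to 2.74% of the 6-gene sum. A Cd207 count was found in 91.7% and 87.0% of control Langerhans cells and in 73.1% and 75.9% of CerS4epi-/- ones, and part of this gap lay in the cells of low sum. Among cells with a sum of at least 60 the shares were 91.7% and 92.7% against 86.4% and 84.6%. Among those that also had under 2% keratinocyte counts the level remained apart, at 1897 and 1770 CPM in the control mice and 1091 and 1028 CPM in the CerS4epi-/- mice. Under the 19 other settings the fold change lay between -0.66 and -1.11, with -0.69 where each cell had to hold a Cd207 count. Cd207 helped to choose the cells in these settings too, so the range is a description and not a test.

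The MHC class II genes overlapped between the genotypes when all Langerhans cells were summed. H2-Aa was at 17065 and 10984 CPM in the control mice and at 12467 and 13343 CPM in the CerS4epi-/- mice. H2-Ab1 and H2-Eb1 followed the same order for the control mice, highest in control 1 and lowest in control 2. H2-Aa, H2-Ab1, H2-Eb1 and Cd74 together took 6.14%, 3.996%, 4.59% and 4.71% of all counts in control 1, control 2, CerS4epi-/- 1 and CerS4epi-/- 2, while their proportions to each other hardly moved: H2-Ab1 was 31.0% to 33.0% of the 4 and Cd74 18.5% to 20.5%. Control 2 also had the largest share of keratinocyte-rich cells; in cells with under 2% keratinocyte counts H2-Aa was at 20110, 17903, 17798 and 17754 CPM, without overlap and lower in the CerS4epi-/- mice by less than the gap between the control mice.
Csf1r, the receptor for IL-34, was at 1169 and 875 CPM in the control mice and at 1311 and 1369 CPM in the CerS4epi-/- mice, without overlap and with no test (log2 fold change 0.41 ± 0.26, SE).

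**Figure D3:**
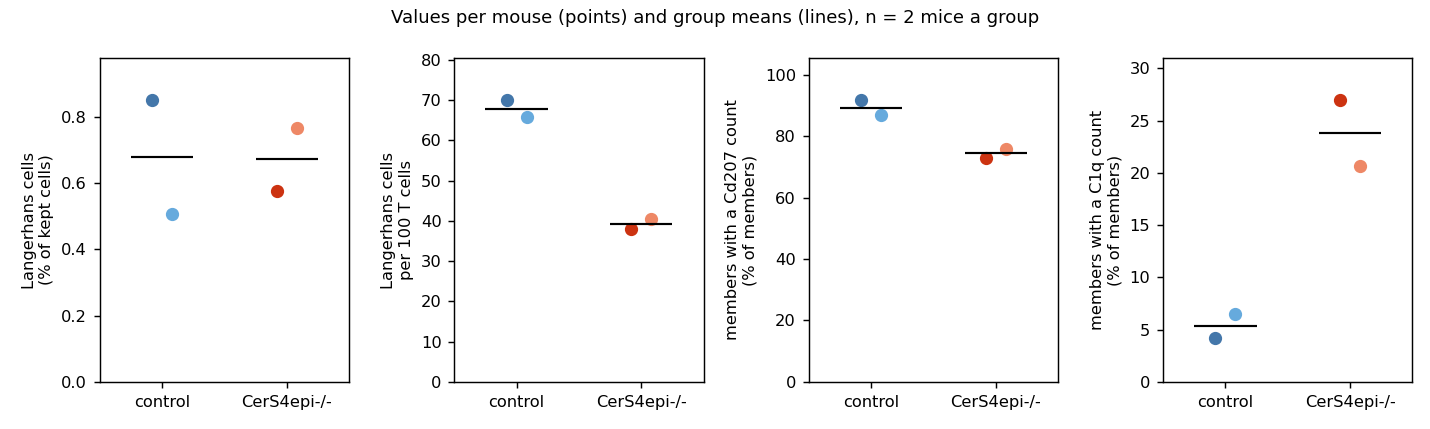
Values per mouse (points) with group means (lines): Langerhans cells as percent of kept cells, Langerhans cells per 100 T cells, and the percent of Langerhans cells with a count of Cd207 or of any C1q gene. The first overlaps between genotypes, and the other panels show 69.9 and 65.7 against 38.0 and 40.6 per 100 T cells, 91.7% and 87.0% against 73.1% and 75.9%, and 4.17% and 6.52% against 26.9% and 20.7%.

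Few genes passed the test between the genotypes in these shallow sums of 2 mice a group. Counts were summed over the Langerhans cells of each mouse and fitted with edgeR's quasi-likelihood test, and 1 of 3768 genes rose in CerS4epi-/- mice (0.0265%) and 0 fell (0%) at a Benjamini-Hochberg adjusted p under 0.05. At an unadjusted p under 0.05 there were 66 higher and 59 lower of the 3768, where a share of 0.05 is expected with no difference. DESeq2 called 3 higher and 0 lower at an adjusted p under 0.05. In all other kept cells, a much deeper sum, the same test called 1433 of 15939 genes higher (8.99%) and 1074 lower (6.74%), or 10.2% higher and 8.44% lower of the 3768 genes tested in Langerhans cells.
The count of calls rested on which mice entered. Without control 1 it was 29 higher and 34 lower, without control 2 60 higher and 9 lower, without CerS4epi-/- 1 6 higher and 7 lower, and without CerS4epi-/- 2 31 higher and 7 lower. It was 0 in both directions when the cells with at least 2% keratinocyte counts were left out.

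The gene that rose was Cst6, a cystatin of the cornifying epidermis that inhibits cathepsins (chr19:5394733-5399602, - strand, GRCm39). Cst6 had 493 and 577 CPM in control 1 and 2, and 3322 and 2596 CPM in CerS4epi-/- 1 and 2. Both CerS4epi-/- mice lay above both control mice (log2 fold change 2.48 ± 0.28, SE, adjusted p = 0.0181). The call was lost, at a fold change of like size, with at most 10% mitochondrial counts (2.53, adjusted p = 0.999). The same held with equal numbers of cells (2.30, adjusted p = 0.960) and with the replicate block (2.47, adjusted p = 0.380). The other kept cells, mostly keratinocytes, moved alongside, with 1118 and 840 CPM of Cst6 against 3235 and 4578 CPM (log2 fold change 1.99 ± 0.19, adjusted p = 0.00311), and so did barcodes of fewer than 100 counts, which hold mainly free RNA, at 925 and 707 against 2688 and 3022 CPM. Langerhans cells with under 2% keratinocyte counts held few of the Cst6 counts, 8 of 108 and 0 of 95 in control mice and 17 of 687 and 56 of 531 in CerS4epi-/- mice. Their level was 48.7 and 0 CPM against 133 and 413 CPM, with a log2 fold change of 2.996 ± 0.68 that did not pass the test (adjusted p = 0.244). The part of keratinocyte RNA in the rise was not tested.
Sprr1a, a cornified envelope protein, showed 187 and 219 CPM against 711 and 1276 CPM (log2 fold change 2.30 ± 0.34, adjusted p = 0.0838). Chd9, a chromatin remodeller, showed 91.4 and 134 against 309 and 450 CPM (1.78 ± 0.33, adjusted p = 0.208). For both, the other kept cells showed a rise of like size, 1.93 ± 0.30 and 1.71 ± 0.16 on the log2 scale (adjusted p = 0.00992 and 0.00295). Among Langerhans cells with under 2% keratinocyte counts the log2 fold change was 3.69 ± 0.72 for Sprr1a (adjusted p = 0.141), on 3, 2, 16 and 61 counts, and 1.10 ± 0.36 for Chd9 (adjusted p = 0.569). Without the 25% of cells richest in these counts Chd9 was at 0.54 (adjusted p = 0.870). Sprr1a passed the threshold in 8 of 18 alternatives and Chd9 in 6 of 19.

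**Figure D4:**
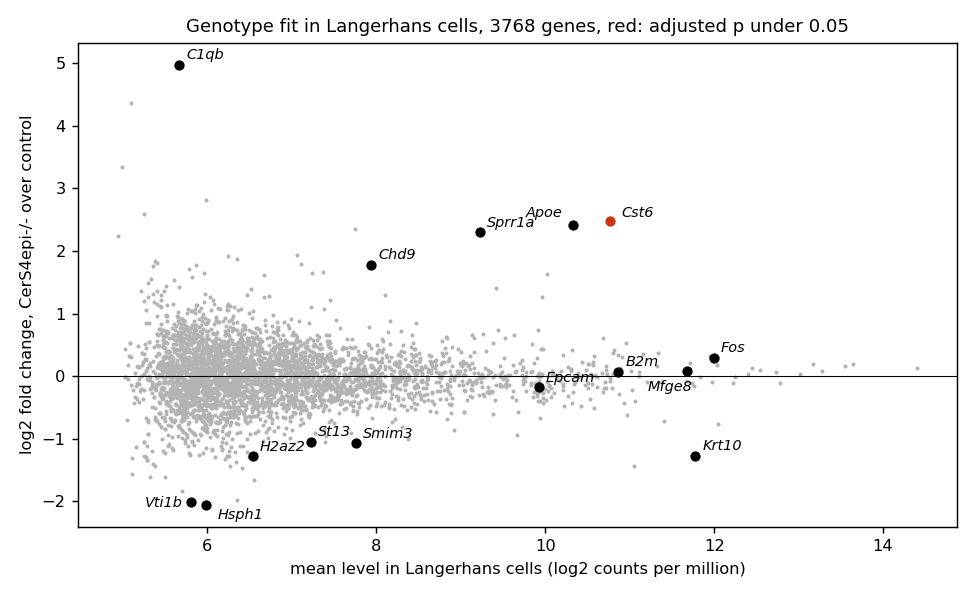
For 3768 genes tested in Langerhans cells, the mean level (log2 CPM) against the log2 fold change of CerS4epi-/- over control; named genes are labelled, and the gene past the threshold is red. Cst6 at 2.48 is the only red point, and C1qb at 4.98 stands highest with few counts behind it.

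Apoe is a lipid carrier of macrophages and keratinocytes. It was at 306 and 517 CPM in control 1 and 2, and at 2727 and 1604 CPM in CerS4epi-/- 1 and 2, with no overlap (log2 fold change 2.42 ± 0.38, SE, adjusted p = 0.0838). In the other kept cells it was at 1337 and 1175 against 3834 and 4461 CPM (1.72 ± 0.10, adjusted p = 0.00156). In Langerhans cells with under 2% keratinocyte counts Apoe was at 128 and 295 against 766 and 627 CPM (1.93 ± 0.31, adjusted p = 0.0660), and free RNA held 1493 and 1264 against 3919 and 4181 CPM. Without the 25% of cells of each mouse that were richest in keratinocyte counts the log2 fold change was -0.39 (adjusted p = 0.966), while Apoe passed the threshold in 11 of the 19 alternatives.

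C1q was near 0 in the other kept cells, unlike Cst6 and Apoe. The rule can hold that level low, since macrophages that express its genes would be counted as Langerhans cells. C1qb, a chain of the first complement component that macrophages make, had 1 count in control 1 and 0 in control 2, and 24 and 17 counts in those of CerS4epi-/- 1 and 2. That was 4.57 and 0 CPM against 116 and 83.1 CPM, and C1qb did not pass the test (log2 fold change 4.98 ± 0.84, adjusted p = 0.126). With 1 control count the size is not well determined. C1qb passed the filter on low counts only through the CerS4epi-/- mice, so its tests, here and in the alternatives below, are given as a description. C1qa had 2 and 3 counts against 12 and 6, and C1qc 0 and 0 against 17 and 5, both too few to be tested. In all other kept cells C1qb was at 0 to 0.0628 CPM, and none of the 3 genes had a count in the free RNA.
At least 1 C1q count was found in 3 of 72 and 3 of 46 control Langerhans cells and in 14 of 52 and 12 of 58 from CerS4epi-/- mice. The shares were 4.17% and 6.52% against 26.9% and 20.7% and did not overlap, though the genes were singled out after their values were seen. At least 2 C1q counts were found in 0 of 118 and 13 of 110 cells. Of the 26 C1q cells of the CerS4epi-/- mice, 26 had Mfge8, 25 had a 6-gene sum of at least 60 and 17 (65.4%) had Cd207, against Cd207 in 65 of the 84 without C1q (77.4%). Of the 6 C1q cells of the control mice 4 had Mfge8 and 5 had Cd207. Mrc1, Cd163 and Fcgr1 of dermal macrophages were at 0, and Lyz2, a lysozyme of myeloid cells, was at 45.7 and 72.9 against 67.7 and 92.9 CPM. The part of other macrophages in the C1q counts was not tested. C1qb passed the threshold in 7 of the 17 alternatives. These were the fits without control 1 (adjusted p = 0.000273), without control 2 (0.000161) and without CerS4epi-/- 2 (0.00721), a 6-gene sum of at least 20 (0.0167) or 5 (0.0407), no filter on low counts (3.54e-06), and a crossed block chosen after seeing the data (0.000155). In the other 10 the adjusted p lay between 0.0660 (under 2% keratinocyte counts) and 0.998 (without CerS4epi-/- 1), with 0.105 at a sum of at least 60, 0.393 with the replicate block and 0.647 with DESeq2. The log2 fold change was 4.65 without CerS4epi-/- 1 and 5.27 with DESeq2.

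Among genes that were lower without overlap, none passed the test in the fit over 3768 genes. Vti1b, a SNARE of endosomes, was at 95.9 and 85.1 CPM in control mice and at 29.0 and 14.7 CPM in CerS4epi-/- mice (log2 fold change -2.01 ± 0.54, SE, adjusted p = 0.917). Hsph1, a heat shock protein, was at 132 and 72.9 against 33.9 and 14.7 CPM (-2.06 ± 0.56, adjusted p = 0.917). Vti1b and Hsph1 passed the filter on low counts only through the control mice, so their tests, here and in the alternatives, are given as a description. Smim3 was at 333 and 255 against 145 and 132 CPM (-1.07 ± 0.30, adjusted p = 0.917). The histone variant H2az2 (-1.28 ± 0.37) and the cochaperone St13 (-1.05 ± 0.31) followed, each with an adjusted p of 0.996. Among the alternatives Hsph1 passed in 3 of 17 (without control 2, without CerS4epi-/- 1 and without a filter on low counts), Smim3 in 1 of 19 (without control 2), and Vti1b, H2az2 and St13 in none.

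The functional lists were compared with all genes tested, of which 15.0% lay higher in both CerS4epi-/- mice than in both control mice and 16.0% lay lower. None of the 11 lists held a gene past the threshold in either direction. For antigen processing, 13 of 17 genes were tested, 3 lay higher without overlap and 0 lower, with a median log2 fold change of 0.093. B2m, the light chain of MHC class I, was at 2037 and 1623 against 1910 and 1892 CPM, and the heavy chain H2-D1 at 1626 and 1508 against 1992 and 2005 CPM (log2 fold change 0.37 ± 0.24, adjusted p = 0.996). H2-K1 and Ifi30 were the others without overlap.
For residence and identity, 13 of 20 genes were tested, 1 lay higher (Ahr, the aryl hydrocarbon receptor) and 1 lower (Runx3, a factor needed for Langerhans cells), with a median of -0.094. Mfge8 had a log2 fold change of 0.08 ± 0.26 (SE) and Epcam of -0.17 ± 0.28, and the sign of each depended on which mice entered. For type 2 response genes, 6 of 14 were tested and Stat6 alone did not overlap, lying lower, with a median of -0.12. Klf4 was at 557 and 1003 against 1088 and 743 CPM, and Jak1 at 215 and 195 against 131 and 200 CPM, both with overlap.

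For maturation and migration, 11 of 20 genes were tested and the median was -0.11. Ccr7, the receptor that takes Langerhans cells to the lymph node, was at 0 in all mice, as were Ccl17 and Cd274. Cd44 was at 904 and 644 against 745 and 670 CPM, and Nfkbia at 808 and 675 against 856 and 616 CPM, so both overlapped. Marcks and Icam1 lay higher and Tnfaip3, Relb and Nfkb1 lower without overlap. Relb passed the filter on low counts only through the control mice, so its direction is a description. Tnfaip3, the brake on NF-κB also called A20, was at 676 and 577 CPM against 310 and 372 CPM (log2 fold change -0.87 ± 0.27, adjusted p = 0.996).
For inflammatory cytokines, 5 of 14 genes were tested, 2 lay lower and none higher, with a median of -0.21. Of the lower genes, Il1b passed the filter on low counts only through the control mice, so its direction and test are a description. Nlrp3 was at 288 and 255 CPM in control mice and 116 and 171 CPM in CerS4epi-/- mice (-0.91 ± 0.30, adjusted p = 0.996), and Il1b, which the inflammasome matures, was at 82.2 and 54.7 against 24.2 and 19.6 CPM (-1.62 ± 0.61, adjusted p = 0.996), on 18, 9, 5 and 4 counts. Among cells with under 2% keratinocyte counts Il1b was at 79.1 and 29.5 against 39.1 and 29.5 CPM, so the groups overlapped there, on 13, 2, 5 and 4 counts. Tnf at 699 and 213 against 798 and 582 CPM and Cxcl2 at 429 and 103 against 305 and 156 CPM both overlapped.

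For lysosome and uptake, 14 of 15 genes were tested, with 5 higher (among them Cd63, Ctsz, Npc2 and Psap) and 1 lower (Lamp2) without overlap and a median of 0.16. Lgals3 was at 521 and 1319 against 808 and 587 CPM and Ctsb at 635 and 602 against 503 and 709 CPM. For lipid handling, 6 of 16 genes were tested, 4 lay higher (among them Apoe, Apoc1 and Nr1h2) and 0 lower, and the median of 0.79 was the furthest from 0 of the 11 lists. Apoc1, encoded beside Apoe, was at 59.4 and 115 against 179 and 127 CPM (0.86 ± 0.40, adjusted p = 0.996). In the other kept cells the same 6 genes had a median of 0.34, and 3 of them rose, against 10.2% of all 3768 genes.

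For sphingolipid genes, 12 of 22 were tested, with 2 higher (Ormdl3 and Cers5) and 2 lower (Degs1 and Sptlc2) without overlap and a median of -0.14. Of the higher genes, Ormdl3 passed the filter on low counts only through the CerS4epi-/- mice, so its direction and test are a description. Ormdl3, an inhibitor of serine palmitoyltransferase, was at 13.7 and 24.3 CPM in control mice and 67.7 and 63.6 CPM in CerS4epi-/- mice (log2 fold change 1.81 ± 0.66, adjusted p = 0.996). Sgpl1 was at 128 and 109 against 106 and 161 CPM and Sgms1 at 86.8 and 176 against 126 and 63.6 CPM.
For dissociation and early response genes, all 19 were tested, 5 lay higher (Egr2, Jun, Jund, Dnajb1 and Hspa1b) and 0 lower, with a median of 0.21. In the other kept cells 8 of the 19 rose and 1 fell, against 10.2% and 8.44% of all 3768 genes. In Langerhans cells the list summed to 30686 and 20576 CPM in control mice and 28919 and 28221 CPM in CerS4epi-/- mice, so it was lowest in control 2. It was led by Zfp36 (6838 and 3957 against 5663 and 5173 CPM) and Fos (4449 and 2948 against 4580 and 4351 CPM). Of 20 cell cycle genes 4 were tested with none apart, and Pcna (407 and 286 against 329 and 411 CPM) and Hmgb2 (196 and 176 against 150 and 181 CPM) overlapped.
Of 18 interferon response genes only Irf1 had enough counts to be tested (68.5 and 24.3 against 58.0 and 48.9 CPM); Stat2, below the filter, was at 50.2 and 42.6 against 33.9 and 44.0 CPM.

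A genotype difference in Langerhans cells was also set against that in all other kept cells of the same mice. In an interaction fit with the mouse as a block, 0 of 3768 genes passed the threshold (0%). At an unadjusted p under 0.05 there were 215 of the 3768, where a share of 0.05 is expected with no difference. DESeq2 was not run for this fit. The genes with the smallest p were Adcy7, an adenylyl cyclase, Serinc2 and Mfge8, each with an adjusted p of 0.104, with log2 fold changes of 0.11, -0.50 and 0.08 in Langerhans cells and of 2.43 ± 0.30, 1.85 ± 0.15 and 2.10 ± 0.19 (SE) in the other cells. Mfge8 went from 2.30 and 1.59 to 7.60 and 9.08 CPM in the other cells (log2 fold change 2.10 ± 0.19, SE, adjusted p = 0.00292), with a difference between the classes of -2.06 ± 0.32. Hpgds, the prostaglandin D synthase, fell in the other cells from 165 and 187 to 65.2 and 53.0 CPM (-1.57 ± 0.12, adjusted p = 0.00195) and stood at 1096 and 821 against 837 and 890 CPM in Langerhans cells. The other kept cells are a mixture of cell types, and markers within it differed between the genotypes. Krt79, a keratin of the upper hair follicle, was detected in 15.7% and 11.8% of them in control mice and in 29.3% and 30.9% in CerS4epi-/- mice. The part of a changed mixture in their rises and falls was not tested. Of the 17 settings of this fit, Mfge8 and Serinc2 passed the threshold in 8, Adcy7 in 7 and Hpgds in 5.

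**Figure D5:**
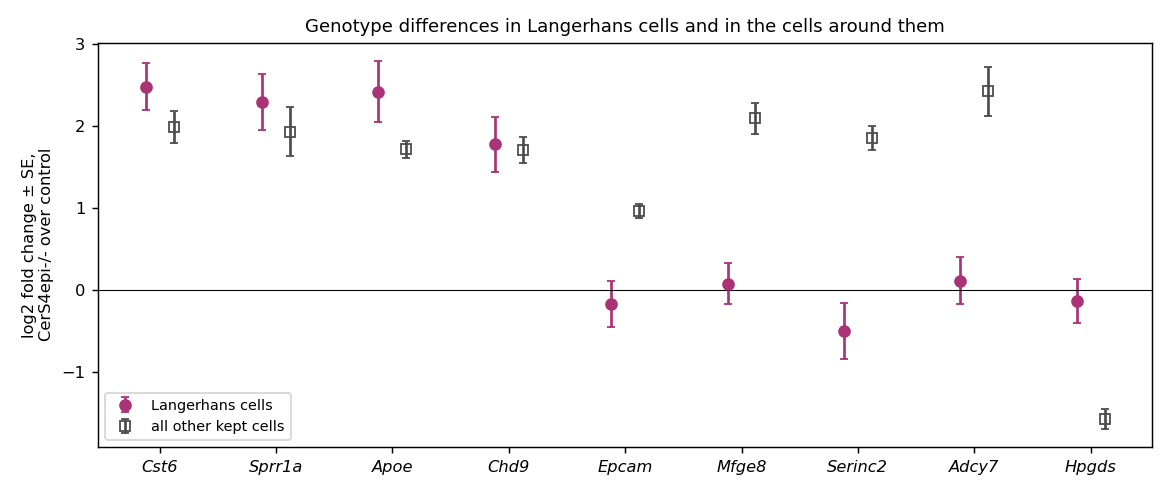
Log2 fold change of CerS4epi-/- over control with its SE, in Langerhans cells (filled) and in all other kept cells of the same 4 mice (open). Cst6, Sprr1a, Apoe and Chd9 lie at 1.71 or above in both classes, while Epcam, Mfge8, Serinc2 and Adcy7 are above 0.9 and Hpgds below -1.5 in the other cells only; the difference between classes did not pass the threshold for any of the 9 genes.

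The ligands that keep Langerhans cells in the epidermis were read in the other kept cells. Il34 was at 88.6 and 103 CPM in control mice and at 83.9 and 82.5 CPM in CerS4epi-/- mice (log2 fold change -0.21 ± 0.085, SE, adjusted p = 0.152). Csf1, the other ligand of Csf1r, was at 21.6 and 22.4 against 22.03 and 23.5 CPM. Tgfb1 was at 1.63 and 1.89 against 2.68 and 2.87 CPM (0.65 ± 0.18, adjusted p = 0.0552).
Ccl20, a chemokine that attracts Langerhans cell precursors, was at 9.51 and 6.65 against 18.4 and 10.6 CPM (0.85 ± 0.28, adjusted p = 0.0874), and Tslp, an epithelial cytokine of type 2 responses, at 2.98 and 2.68 against 2.62 and 1.84 CPM (-0.33 ± 0.21, adjusted p = 0.331). None of the 5 passed the test.

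Within mice, Langerhans cells varied most in keratinocyte genes. With each cell thinned to 1200 counts, the 10 genes of largest Fano factor (variance within mice over the mean) were Lor (65.4, seen in 39 cells), Lce1m, Cst6, Defb6, Crct1, Krtdap, Krt10, Wfdc21, Sprr1a and Calm4. Leaving out the cells with at least 2% keratinocyte counts, the order over 950 genes changed, and the first 10 were Mt1, Apoe, Mt2, Rgs2, Lgals7, Klf6, Rgs1, Fos, Zfp36 and Lrch1. Mt1, a metallothionein, had a Fano factor of 8.94 and was seen in 55 of 180 cells, with up to 30 thinned counts. Apoe followed with 7.38 and was seen in 34 cells. Rgs2 (4.39, in 155 cells) and Fos (3.78, in 167 cells) were found in most cells at uneven levels.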

How the data were processed

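The deposited values are estimated counts (UMIs) for every gene in every barcode, which the authors made from BD Rhapsody reads with fastp 0.23.2 and STAR 2.7.10a on GRCm39 with Gencode vM29, sharing reads of several genes by expectation maximization; introns were counted, and barcodes were not filtered. The authors split the libraries by sample tag. Counts were rounded per cell for the rule and after summing for the fits. The rule genes and Cd3e and Cd3g were fitted but not tested. A gene could pass the filter on low counts through 1 genotype alone. C1qb and Ormdl3 did so through the CerS4epi-/- mice and Il1b, Relb, Vti1b and Hsph1 through the control mice, so their tests are a description. The members, lists and rules were chosen with earlier results of these data known. Sums per mouse passed filterByExpr and were fitted with TMM factors in edgeR 4.0.16 (glmQLFit, glmQLFTest, R 4.3.3; DESeq2 1.42.0 as an alternative), Benjamini-Hochberg over 3768 genes, after a test on simulated data. Named were, per direction, the 5 non-overlapping genes of smallest p (as under 5 were called), the 2 genes of most counts per list, the 20 leading genes, 10 of largest Fano factor and fixed genes; C1qa, C1qc, Lyz2, Mrc1, Hpgds, Adcy7, Serinc2, Il1b, Nlrp3 and other genes of a list without overlap were named after their values were seen; some members of the lists are not reported here. With 2 mice a group that the labels number only, p-values measure the spread between these samples. Promoters came from RefSeq (GRCm38.p6) and gene positions from Gencode vM39; 6 class II promoters (H2-Aa, H2-Eb1, H2-Ob, H2-Oa, H2-DMb1 and H2-DMb2) were matched by symbol. Library totals were 42619084, 48497481, 53106317 and 39231945 counts in control 1, control 2, CerS4epi-/- 1 and CerS4epi-/- 2. Alternatives changed the rule, the filters, the tool, the factors and the mice.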

Additional observations from a re-analysis of the deposited data

How the results depend on the processing

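The log2 ratio of the shares moved by less than the spread between mice under every alternative tried, and lay between -0.34 and 0.41 when 1 mouse was left out; Cers4 had no count under the 3 alternatives tried. The counts of calls moved, and the cause was not tested. Against 1 gene higher, 6 were called at a 6-gene sum of at least 20 and 6 at a sum of at least 5, 2 at a sum of at least 60 and 2 with a Cd207 count in each cell, 3 with DESeq2, 38 without a filter on low counts, and 0 with at most 10% mitochondrial counts, with equal numbers of cells, without the 25% of cells richest in keratinocyte counts, and at a keratinocyte share under 2%. Against 0 genes lower, these were 16 at 20, 2 at 5, 5 at 60 and 10 without a filter. Against 0 genes in the interaction, 25 were called at 20, 22 at 60, 1 with at least 2000 counts, 3 without the 25% of cells richest in keratinocyte counts, 10 at a keratinocyte share under 2% and 35 without a filter. Leaving out 1 mouse gave 6 to 60 genes higher, 7 to 34 lower and 3 to 46 in the interaction; the group of 1 mouse was then assumed to vary like the other. Replicate numbers did not pair the mice (correlation of deviations -0.25 over 1274 genes): the replicate block gave 0 genes higher and 0 lower, and the crossed block, chosen after seeing the data like the sum of 60 and the 2% share, gave 17 higher and 2 lower. Signs turned, short of the threshold: Apoe to -0.39 without the 25% of cells richest in keratinocyte counts, Mfge8 to -0.19 without CerS4epi-/- 1 and -0.10 without control 2 (-0.19 to 0.26 over the 4 fits without 1 mouse), and Epcam to 0.030 at a sum of at least 5 and 0.067 without control 1 (-0.42 to 0.067 over the 4 fits). Cst6 was called in 14 of 18 alternatives. The sums of 164580 to 219027 counts limit what can be seen in genes of few counts.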

Other observations

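In CerS4epi-/- 1, most counts of interferon genes lay in very few cells. The 18 genes of the interferon response list summed to 192 and 122 CPM in the Langerhans cells of control 1 and 2, and to 571 and 127 CPM in those of CerS4epi-/- 1 and 2. In CerS4epi-/- 1, 2 cells held 49 and 31 of the 118 counts of the list, while the 41, 19 and 24 counts of control 1, control 2 and CerS4epi-/- 2 were spread over 26, 14 and 17 cells with at most 4 in a cell. The first of them had 14 counts of Gbp2 and 11 of Cxcl10, no Cd207 count and a 6-gene sum of 11, so it was one of the cells just inside the limit.

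Some barcodes met the 6-gene sum but not the other conditions. From 600 up to the limit of 1200 counts there were 4, 5, 1 and 5 in control 1, control 2, CerS4epi-/- 1 and CerS4epi-/- 2; 3, 0, 1 and 0 were left out for a count of Cd3e or Cd3g, and 1, 2, 2 and 0 for over 20% mitochondrial counts.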
